A study of Mus musculus with 10 samples.

Results

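The neuregulin and ErbB genes are followed here through cardiomyocytes of the mouse heart: the 4 receptors Egfr, Erbb2, Erbb3 and Erbb4, the ligands Nrg1, Nrg2 and Hbegf, and the feedback inhibitor Errfi1. They were taken by symbol from the deposited tables, and all 8 were found among 25239 genes. The tables come from RNA sequencing of 5 libraries of atrial cardiomyocytes (aCM, tissue labelled atrium) and 5 libraries of ventricular cardiomyocytes (vCM), and all 10 libraries are labelled with the genotype WT. No treatment, age, sex or strain is given, and the labels do not say whether the libraries of a chamber came from separate hearts, so p-values speak only for the scatter among these libraries, part of which may be technical. Values are normalized reads, which are reads counted over a gene and divided by the library's size factor.

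ErbB receptors are tyrosine kinases that signal as pairs. Neuregulins bind ErbB3 and ErbB4, ErbB2 has no known ligand and serves as the partner of the others, and ErbB3 has little kinase activity of its own. In the heart, neuregulin 1 is known mainly from endocardial and other endothelial cells and acts on ErbB4 and ErbB2 of cardiomyocytes, a route needed for trabeculation in the embryo and for survival of the adult muscle. Hbegf is a membrane-anchored ligand of Egfr and ErbB4, and Errfi1 (Mig-6) is an induced protein that binds active receptors and blocks their kinases.

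The libraries held 3893406 to 12575523 reads in aCM and 1790402 to 12842635 reads in vCM. In both chambers replicates 1 and 2 stand apart from replicates 3 to 5. Reads of Rn45s, the 45S ribosomal precursor, made up 0.215% to 0.480% of all reads in the first set and 23.1% to 29.8% in the second, with totals of 1790402 to 4445287 reads in replicates 1 and 2 and 11163805 to 12842635 in replicates 3 to 5. The labels do not name these sets, so the chamber difference of each of the 8 genes is also given within them. The chamber labels were met by the markers: all 5 atrial markers were higher in aCM and all 4 ventricular markers were higher in vCM. In vCM the atrial markers summed to 10480 and 27850 normalized reads in replicates 1 and 2, against 2640 to 2974 in replicates 3 to 5. In aCM the ventricular markers summed to 461 and 518 in replicates 1 and 2, against 1706 to 1743 in replicates 3 to 5. Summed over 9 cardiomyocyte genes, the level was 341488 to 827282 normalized reads in aCM and 367744 to 704440 in vCM, and in replicates 3 to 5 alone it was 341488 to 350089 in aCM and 367744 to 429196 in vCM. Of these 9 genes, 1 was higher in vCM and 8 did not pass, and with the replicate block 5 were higher in vCM.

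Upstream sequence was at hand for 4 of the 8 genes, namely Erbb4, Erbb2, Egfr and Errfi1. It is shown because these are the receptors and the inhibitor whose levels differed most in one library set or in both. Each line holds 250 bases before a RefSeq transcription start on GRCm38.p6, 5′ to 3′, with motif matches in capitals.
Erbb4 (chr1:69108060-69108309, minus strand): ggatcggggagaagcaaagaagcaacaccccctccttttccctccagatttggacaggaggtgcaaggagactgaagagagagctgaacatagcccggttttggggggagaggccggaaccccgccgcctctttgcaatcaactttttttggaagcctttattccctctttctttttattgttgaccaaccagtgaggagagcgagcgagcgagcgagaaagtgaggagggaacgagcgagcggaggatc
Erbb2 (chr11:98412234-98412483, plus strand): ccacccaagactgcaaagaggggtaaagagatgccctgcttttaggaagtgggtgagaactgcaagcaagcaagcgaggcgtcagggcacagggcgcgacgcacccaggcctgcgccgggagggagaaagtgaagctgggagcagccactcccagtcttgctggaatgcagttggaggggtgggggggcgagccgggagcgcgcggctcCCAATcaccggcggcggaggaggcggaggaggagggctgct
Egfr (chr11:16751953-16752202, plus strand): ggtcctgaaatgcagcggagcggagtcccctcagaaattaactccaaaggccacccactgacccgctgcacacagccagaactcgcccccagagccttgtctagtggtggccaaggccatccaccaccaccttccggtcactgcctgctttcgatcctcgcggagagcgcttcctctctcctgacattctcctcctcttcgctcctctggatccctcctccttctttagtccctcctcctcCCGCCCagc
Errfi1 (chr4:150854820-150855069, plus strand, the downstream start of this gene): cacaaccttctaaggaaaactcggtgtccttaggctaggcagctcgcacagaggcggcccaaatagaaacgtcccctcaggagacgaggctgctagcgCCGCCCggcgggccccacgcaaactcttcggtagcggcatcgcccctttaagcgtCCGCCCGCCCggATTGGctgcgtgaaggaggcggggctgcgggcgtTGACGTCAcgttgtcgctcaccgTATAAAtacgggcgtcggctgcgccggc
In the Erbb4 window none of 8 strings searched on both strands was found. The Erbb2 window held a CCAAT match on its own, the Egfr window a single GC box, and the Errfi1 window 3 GC boxes, of which the pair nearer the start overlap, with a CCAAT match, a CRE and a TATA box. Among all 32851 windows of this length, 32.7% held the GC box, searched as GGGCGG, and 33.8% held the CCAAT string. The TATA box, searched as TATAAA, was in 12.4% of windows, and the CRE, a cyclic AMP response element searched as TGACGTCA, was in 1.55%. The E-box string CACGTG was in 6.02% of windows and the GATA string AGATAA in 9.99%. The AP-1 string TGACTCA was in 4.46% of windows, and the T-box string AGGTGTGA in 1.12%. The windows were 54% (Erbb4), 66% (Erbb2), 60.8% (Egfr) and 64.8% (Errfi1) G or C, against a median of 52.4%.

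Of the 8 genes, Erbb4, Erbb2 and Nrg2 were higher in aCM, none was higher in vCM and 5 did not pass (limma on log2(normalized reads + 1), two-sided, Benjamini-Hochberg adjusted p under 0.05). Among all 12422 genes tested, 14.7% were called, 8.12% higher in aCM and 6.56% higher in vCM. For 3 of the 8 the aCM and vCM values did not overlap, as for 14.4% of genes tested: Erbb4 and Nrg2 lay higher in aCM (7.84% of genes) and Errfi1 lay higher in vCM (6.55%). The median log2 difference of the 8 was 0.45, beside -0.01 over all genes tested. These counts and this median include Nrg1 and Nrg2, which averaged under 10 normalized reads in vCM. Both genes entered the test through their aCM levels. With the replicate number as a block, 5 of the 8 were called (32.3% of all genes), since Nrg1 passed as higher in aCM and Errfi1 as higher in vCM. Other fits called 6 with the library set as a term (31.8% of all genes), 6 in replicates 3 to 5 only (52.8%), 1 in replicates 1 and 2 only (5.14%), 4 by edgeR (16.1%), 5 by DESeq2 (20.7%) and 5 with both libraries numbered 1 left out (17.3%), a fit added after the data were seen. In RNA of a whole cell preparation, more cells of a type and more RNA per cell cannot be told apart.

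**Figure D1:**
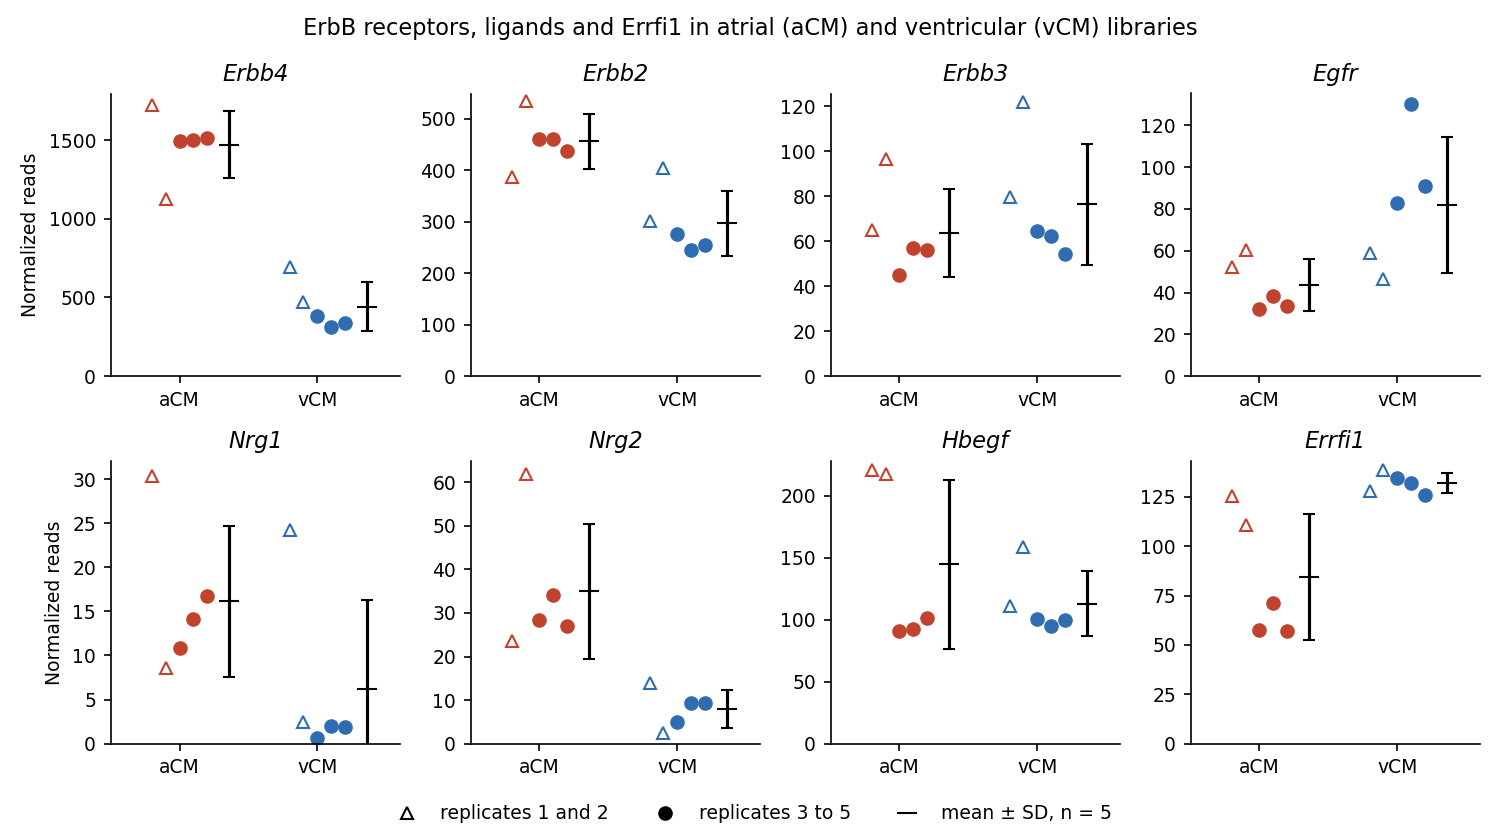
Normalized reads of the 8 genes in each library, with aCM left of vCM in every panel; triangles are replicates 1 and 2, circles are replicates 3 to 5, and bars give the mean and SD of 5 libraries, cut off at 0 for Nrg1 in vCM. Erbb4 sits at 1127 to 1724 in aCM and 312 to 695 in vCM, and the Nrg1 value of vCM replicate 1 (24.2) stands above the other vCM libraries.

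Erbb4, the receptor that both binds neuregulin and carries an active kinase, had the highest mean level per kilobase of the 8 in aCM. Its level was 1724, 1127, 1495, 1501 and 1511 normalized reads in aCM replicates 1 to 5, against 695, 473, 380, 312 and 339 in vCM replicates 1 to 5. Every aCM library lay above every vCM library. The means were 1471 ± 215 in aCM and 440 ± 155 in vCM (SD, n = 5 each), a 3.35-fold higher level in aCM. The log2 difference was 1.79 ± 0.21 (SE; limma, adjusted p = 0.000282). Replicates 1 and 2 alone gave 1.28, replicates 3 to 5 alone gave 2.13, and the difference between these values did not pass (interaction, limma adjusted p = 0.103). Erbb4 is at 68032186 to 69108059 on the minus strand of chromosome 1 (ENSMUSG00000062209).

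Erbb2, the receptor without a ligand that pairs with the others, was higher in aCM by a smaller margin. It stood at 386, 534, 461, 461 and 438 normalized reads in aCM, against 301, 405, 276, 245 and 256 in vCM. The ranges overlap, because vCM replicate 2 lay above aCM replicate 1, while aCM was higher in 5 of 5 same-numbered pairs. Means were 456 ± 53.2 in aCM and 297 ± 64.0 in vCM, a 1.54-fold difference (log2 0.64 ± 0.15 SE, limma adjusted p = 0.0155). Replicates 1 and 2 alone gave a log2 difference of 0.38, which did not pass (limma adjusted p = 0.490), and replicates 3 to 5 alone gave 0.81. The call was also lost with libraries scaled to equal totals (limma adjusted p = 0.0622), with the log2 difference then at 0.70. Erbb2 lies at 98412470 to 98437716 on the plus strand of chromosome 11 (ENSMUSG00000062312) and overlaps Mien1 on the opposite strand, which averaged 55.9 normalized reads. The strand setting of the counting is not given, so reads of such overlapping genes cannot be told apart.

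Erbb3, which binds neuregulin but depends on its partner's kinase, did not pass in any alternative run. Its values were 64.8, 96.4, 44.9, 57.2 and 56.0 normalized reads in aCM, against 79.6, 122, 64.4, 62.1 and 54.4 in vCM. The groups overlap over most of their ranges. Means were 63.9 ± 19.6 in aCM and 76.5 ± 27.0 in vCM, with a log2 difference of -0.24 ± 0.26 (SE; limma, adjusted p = 0.658). Replicates 1 and 2 alone gave -0.31, and replicates 3 to 5 alone gave -0.20. The gene is at 128567523 to 128589652 on the minus strand of chromosome 10 (ENSMUSG00000018166).

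Egfr, the receptor for EGF, TGF-alpha and Hbegf, was higher in vCM among replicates 3 to 5 and did not pass among replicates 1 and 2 (limma adjusted p = 0.929). It had 52.4, 60.5, 32.4, 38.3 and 33.5 normalized reads in aCM, against 58.8, 46.3, 83.0, 130 and 90.8 in vCM. Within replicates 3 to 5 every vCM library lay above every aCM library, at means of 34.7 ± 3.17 in aCM and 101 ± 25.3 in vCM (SD, n = 3 each), 2.92-fold higher in vCM. Over all libraries the means were 43.4 ± 12.4 in aCM and 81.9 ± 32.5 in vCM, and the log2 difference of -0.85 ± 0.29 (SE) did not pass (limma, adjusted p = 0.0787). It passed with edgeR's quasi-likelihood test (adjusted p = 0.0420), with DESeq2 (0.0105), with the library set as a term in limma (0.0366) and without vCM replicate 2 (limma adjusted p = 0.0312). Replicates 1 and 2 gave a log2 difference of 0.11 and replicates 3 to 5 gave -1.49, and these differed from each other (interaction -1.60 ± 0.31 SE, limma adjusted p = 0.0182). Egfr lies at 16752203 to 16918158 on the plus strand of chromosome 11 (ENSMUSG00000020122).

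**Figure D2:**
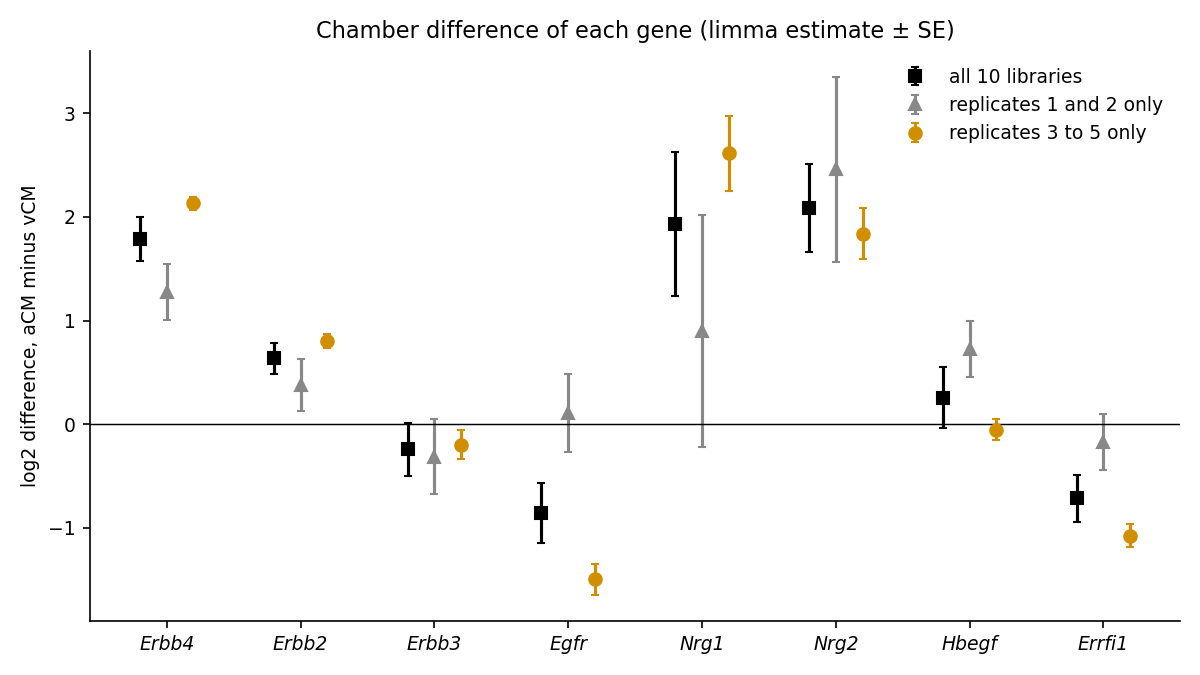
Chamber difference of the 8 genes (log2, aCM minus vCM, limma estimate with its SE), over all 10 libraries and within replicates 1 and 2 and replicates 3 to 5. Erbb4 is above 0 in all 3 fits (1.79, 1.28 and 2.13), whereas Egfr is at 0.11 in replicates 1 and 2 and at -1.49 in replicates 3 to 5.

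Divided by the exon length of each gene, the order of the receptors was not the same in the chambers. In aCM it was Erbb4 (119 ± 17.4 normalized reads per kilobase), Erbb2 (87.5 ± 10.2), Erbb3 (10.6) and Egfr (3.83). In vCM it was Erbb2 (56.9 ± 12.3), Erbb4 (35.6 ± 12.6), Erbb3 (12.7) and Egfr (7.23). Erbb4 and Erbb2 overlap in range in both chambers, and Erbb3 and Egfr overlap in vCM. The Erbb4 to Erbb2 ratio per kilobase was 0.890 to 1.88 in aCM libraries and 0.493 to 0.974 in vCM libraries. Summed over the 4 receptors the level was 221 ± 5.26 in aCM and 112 ± 22.2 in vCM, 1.97-fold higher in aCM.

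As shares of that sum, Erbb4 made up 60.9%, 42.4%, 55.1%, 54.5% and 55.9% in aCM, against 42.5%, 27.3%, 30.2%, 26.8% and 29.3% in vCM. The lowest aCM share, in replicate 2, and the highest vCM share, in replicate 1, nearly coincide. The mean share of Erbb4 was 53.8% ± 6.84 in aCM and 31.2% ± 6.45 in vCM, 22.5 percentage points apart (exact two-sided permutation test, p = 0.0159, adjusted 0.0159 over 4 shares). Erbb2 made up 39.7% ± 5.45 in aCM and 50.7% ± 4.40 in vCM (exact p = 0.0159). Erbb3 was 4.81% ± 1.55 in aCM and 11.1% ± 1.93 in vCM, and Egfr 1.73% ± 0.505 in aCM and 6.96% ± 3.74 in vCM, each with an exact permutation p of 0.00794, the smallest that 5 against 5 libraries allow (adjusted 0.0159). The 4 shares sum to 100%, so these tests are not independent, and they were chosen after the values were seen. A lower share in aCM need not be a lower level, since each share also depends on the other receptors. The Erbb2 level was higher in aCM, and the Erbb3 and Egfr levels did not pass over all libraries.

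**Figure D3:**
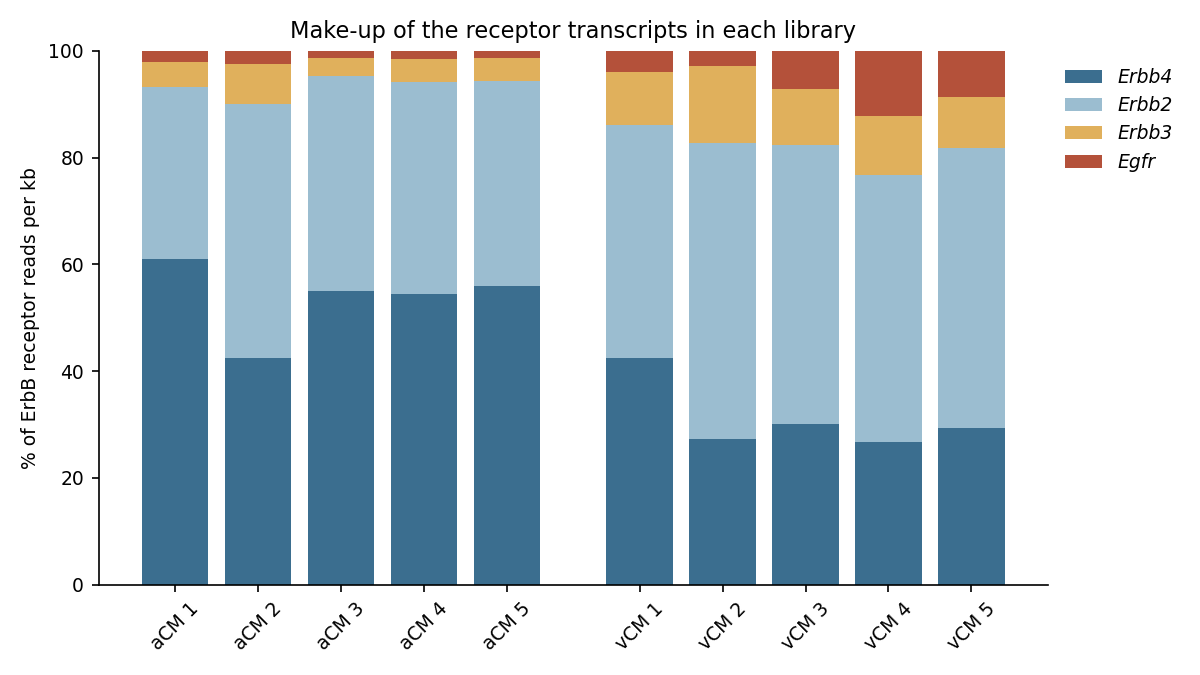
Share of the summed receptor level (normalized reads per kilobase of exon) held by Erbb4, Erbb2, Erbb3 and Egfr in each library, with aCM libraries left of vCM libraries. Erbb4 holds 42.4% to 60.9% in aCM and 26.8% to 42.5% in vCM.

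Among the ligands, Nrg2 was higher in aCM, where the lowest library still exceeded the highest vCM library. Nrg2 is a neuregulin best known from the nervous system. It had 23.4, 61.9, 28.4, 34.2 and 27.0 normalized reads in aCM, against 13.8, 2.44, 4.96, 9.36 and 9.27 in vCM, from 17 to 58 reads per aCM library and 1 to 15 reads per vCM library. Means were 34.99 ± 15.5 in aCM and 7.97 ± 4.41 in vCM, a 4.39-fold difference (log2 2.09 ± 0.42 SE, limma adjusted p = 0.00690). Within replicates 1 and 2 alone, where vCM holds 4 reads and 1 read, the log2 difference of 2.46 did not pass (limma adjusted p = 0.184), and replicates 3 to 5 gave 1.84. Nrg2 is at 36017652 to 36197380 on the minus strand of chromosome 18 (ENSMUSG00000060275).

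Nrg1, the ligand that gives the pathway its name, was scarce in both chambers. It had 30.3, 8.64, 10.8, 14.2 and 16.7 normalized reads in aCM, against 24.2, 2.44, 0.620, 2.005 and 1.85 in vCM. The reads behind these values were 22, 6, 19, 24 and 26 in aCM and 7, 1, 1, 3 and 3 in vCM. Replicate 1 was the highest library in each chamber, and vCM replicate 1 alone reached the aCM range. Means were 16.1 ± 8.53 in aCM and 6.23 ± 10.1 in vCM, and the log2 difference of 1.93 ± 0.69 (SE) did not pass (limma, adjusted p = 0.0966). It was 0.90 within the replicates numbered 1 and 2 and 2.61 within those numbered 3 to 5. The difference did not pass with edgeR (adjusted p = 0.111) or DESeq2 (adjusted p = 0.134). With the replicate block it passed (limma adjusted p = 0.0118), as it did without vCM replicate 1 (log2 2.58, limma adjusted p = 0.00300). Without both libraries numbered 1 it was 2.33 (limma adjusted p = 0.00299), an alternative added after the data were seen. Nrg1 and Nrg2 averaged under 10 normalized reads in vCM and passed the filter on low values through their aCM levels. Nrg1 spans 31814551 to 32884029 on the minus strand of chromosome 8 (ENSMUSG00000062991).

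The libraries numbered 1 also held reads over more genes, 21576 in aCM and 19232 in vCM, against 15950 to 16618 in the other 8 libraries. Their endothelial and endocardial marker sums (14 genes) were 5951 normalized reads in aCM replicate 1, against 1412 to 2018 in the other aCM libraries, and 2076 in vCM replicate 1, against 402 to 1235 in the other vCM libraries. Of these 14 markers, 3 were higher in aCM, none was higher in vCM and 11 did not pass, and with the replicate block 7 were higher in aCM. Among replicates 3 to 5 alone, 6 were higher in aCM and 5 in vCM, and among replicates 1 and 2 alone, 2 were higher in aCM and none in vCM. None was at 0 in any library. The part of endothelial RNA in the Nrg1 levels was not tested.

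Hbegf, the ligand shared by Egfr and ErbB4, had the highest level per kilobase of the 3 ligands and did not pass. It had 221, 217, 90.9, 92.6 and 101 normalized reads in aCM, against 111, 158, 100.4, 94.9 and 100.1 in vCM. In aCM, replicates 1 and 2 stood above the rest, and in vCM replicate 2 did. Means were 145 ± 68.1 in aCM and 113 ± 26.1 in vCM (log2 0.26 ± 0.29 SE, limma adjusted p = 0.693). Replicates 1 and 2 alone gave 0.72 and replicates 3 to 5 alone gave -0.05 (interaction, limma adjusted p = 0.0737). Hbegf is at 36504927 to 36515805 on the minus strand of chromosome 18 (ENSMUSG00000024486).

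Errfi1, the induced inhibitor of the receptor kinases, was at 126, 111, 57.4, 71.3 and 57.3 normalized reads in aCM, against 128, 139, 134, 132 and 126 in vCM. All vCM libraries lay within a narrow band and above all aCM libraries, and aCM replicates 1 and 2 came close to that band. Means were 84.5 ± 31.7 in aCM and 132 ± 5.14 in vCM. The log2 difference was -0.71 ± 0.23 (SE; limma, adjusted p = 0.0593), and with the replicate block it passed (limma adjusted p = 0.0190). It also passed without aCM replicate 1 (limma adjusted p = 0.0144) and without aCM replicate 2 (0.0348). Within replicates 3 to 5 the level was 2.11-fold higher in vCM, with a log2 difference of -1.07 there and of -0.18 in replicates 1 and 2 (interaction -0.90 ± 0.20 SE, limma adjusted p = 0.0340). Errfi1 lies at 150853919 to 150868892 on the plus strand of chromosome 4 (ENSMUSG00000028967).

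Egfr and Errfi1 were the 2 of the 8 genes whose chamber difference itself differed between the library sets, as it did for 5.21% of all genes tested. Without aCM replicate 3 or 5, or vCM replicate 4 or 5, this count was 0 with limma; it was 1 without vCM replicate 3, 3 without aCM replicate 1 and 5 without vCM replicate 2. In replicates 3 to 5 the fibroblast marker sum (9 genes) was 35618 to 37765 normalized reads in aCM and 49477 to 64696 in vCM, while in replicates 1 and 2 it was 22617 and 30402 in aCM and 9449 and 20501 in vCM. Of the 9 fibroblast markers, 2 were higher in vCM, none was higher in aCM and 7 did not pass, and none was at 0 in any library. Among replicates 3 to 5 the list counted 1 higher in aCM and 7 higher in vCM, and among replicates 1 and 2 it counted 1 higher in aCM and none in vCM. Both markers called over all libraries, Lum and Pdgfra, had negative log2 differences in each set, but larger ones in replicates 3 to 5. Lum was at -0.58 in replicates 1 and 2 and at -2.69 in replicates 3 to 5, and Pdgfra at -0.82 and -2.81. Col1a1 was at 0.95 and -0.86. The chamber difference differed between the sets for Lum, Pdgfra, Col1a1, Postn and Fbln2 (interaction, limma adjusted p = 0.00164 to 0.0202). It did not pass for Col1a2, Col3a1, Dcn or Tcf21. The part of fibroblast RNA in the Egfr and Errfi1 levels was not tested.

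Per kilobase in vCM, Errfi1 (36.8 ± 1.44) ranked between Erbb2 and Erbb4 and Hbegf (23.4) between Erbb4 and Erbb3, while Nrg2 (2.54) and Nrg1 (0.602) were the lowest. In aCM Hbegf (29.9), Errfi1 (23.6) and Nrg2 (11.1) ranked between Erbb2 and Erbb3, and Nrg1 was again the lowest (1.56). Adjacent genes in these orders overlapped in range, except Erbb2 and Hbegf, and Erbb3 and Egfr, in aCM and Erbb2 and Errfi1 in vCM.

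Among 102 other genes of the network, 93 were tested, of which 9 were higher in aCM, 3 were higher in vCM and 81 did not pass, a share of 12.9% beside 14.7% of all genes. Their median log2 difference was 0.08. With the replicate block 26 were higher in aCM and 13 in vCM, a share of 41.9% beside 32.3% of all genes. Of these calls, 13 higher in aCM and 1 higher in vCM fell among the 20 tested immediate early genes, so this share does not speak for every list. The count of 12 dropped to 5, 6 and 5 without aCM replicate 3, 4 or 5 and to 5, 7 and 7 without vCM replicate 3, 4 or 5.

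Of 8 further ligands of the EGF family, 4 were tested, and Egf, which binds Egfr, was higher in aCM. It had 99.3, 96.4, 82.4, 85.5 and 96.5 normalized reads in aCM, against 62.3, 56.1, 24.8, 23.4 and 28.4 in vCM. The groups do not overlap, and vCM replicates 3 to 5 were lower than vCM replicates 1 and 2. Means were 92.0 ± 7.56 in aCM and 39.0 ± 18.6 in vCM (log2 1.34 ± 0.28 SE, limma adjusted p = 0.00851). The other tested ligands, Tgfa (log2 difference 0.59), Ereg (1.09) and Btc (-0.70), did not pass, though with the replicate block Tgfa did (limma adjusted p = 0.0486). They are named after their values were seen, as all that remain of the tested list. Ereg averaged 17.3 normalized reads in aCM and 8.25 in vCM, so it passed the filter through its aCM level. Areg, Epgn, Nrg3 and Nrg4 were under the filter, with means of 1.08 to 3.87 normalized reads in aCM and 1.38 to 6.77 in vCM.

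Of 7 genes that take part in shedding ligands from the membrane, 1 was higher in aCM, 1 was higher in vCM and 5 did not pass. Adam17, the protease that releases Hbegf and other ligands, averaged 270 ± 12.02 in aCM and 348 ± 23.2 in vCM (log2 -0.36, limma adjusted p = 0.0229). Rhbdf2 (iRhom2), which carries Adam17 to the cell surface, averaged 37.7 ± 7.84 in aCM and 22.9 ± 3.80 in vCM (log2 0.69, limma adjusted p = 0.0425). The Adam17 call was kept in 5 and the Rhbdf2 call in 1 of the 10 fits that left out a library, with limma adjusted p up to 0.0623 for Adam17 and up to 0.108 for Rhbdf2. With the replicate block the list counted 2 higher in aCM and 2 higher in vCM.

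No call was made by limma among 15 tested adaptors or 17 genes of the PI3K and Akt branch. At an unadjusted p under 0.05 the counts were 2 and 3, edgeR called none in either list, and DESeq2 called 1 in each. With the replicate block, 2 adaptors were higher in aCM and 2 in vCM, and in the PI3K and Akt branch 3 were higher in aCM and 2 in vCM. The smallest p-values were those of Shc3 (log2 -1.51, limma adjusted p = 0.127) and Gab1 (-0.41, 0.177), both adaptors, and of the PI3K regulatory subunits Pik3r1 (0.65, 0.0638) and Pik3r2 (-0.34, 0.122). Shc3 averaged 8.88 normalized reads in aCM and 24.0 in vCM, so it passed the filter through its vCM level. With the block the limma adjusted p was 0.00641 for Gab1, 0.0138 for Pik3r1 and 0.00645 for Pik3r2. Pik3r1 averaged 1053 ± 49.2 normalized reads in aCM and 703 ± 253 in vCM.

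In the Ras and ERK branch 1 of 15 genes was higher in aCM, 1 was higher in vCM and 13 did not pass, and with the block 2 and 4 were called. Rps6ka1 (RSK1), a kinase downstream of ERK, averaged 33.3 ± 11.004 in aCM and 7.86 ± 6.69 in vCM (log2 2.16, limma adjusted p = 0.00665). Like Nrg1 and Nrg2, it averaged under 10 in vCM and passed the filter through its aCM level. Map2k1 (MEK1), which activates ERK, averaged 301 ± 40.4 in aCM and 444 ± 100 in vCM (log2 -0.54, limma adjusted p = 0.0429). The Map2k1 call was kept in 2 of the 10 fits that left out a library, with limma adjusted p up to 0.105.

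Of 15 tested negative regulators besides Errfi1, 2 were higher in aCM, 1 was higher in vCM and 12 did not pass. Spry1, a Sprouty inhibitor of receptor signalling to ERK, had 57.9, 72.0, 57.4, 45.4 and 47.6 normalized reads in aCM, against 93.4, 144, 196, 266 and 243 in vCM. The groups do not overlap, and the gap was wider in replicates 3 to 5 (log2 -2.20) than in replicates 1 and 2 (-0.83; interaction, limma adjusted p = 0.0304). Over all libraries the log2 difference was -1.66 ± 0.27 (SE; limma, adjusted p = 0.00216). Dusp6, a phosphatase that inactivates ERK, averaged 216 ± 24.0 in aCM and 115 ± 46.5 in vCM (log2 0.97, limma adjusted p = 0.0111). Dusp5, its nuclear relative, averaged 129 ± 17.2 in aCM and 53.3 ± 17.1 in vCM (log2 1.32, limma adjusted p = 0.00362). These inhibitors thus did not share a direction.

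Of 20 tested immediate early genes, which growth factor receptors and many other stimuli induce within minutes, 4 were higher in aCM, none was higher in vCM and 16 did not pass. With the replicate block, which called 32.3% of all genes, 13 were higher in aCM and 1 in vCM. The median log2 difference of the list was 0.67. The called genes were the transcription factors Egr2 (log2 1.504, limma adjusted p = 0.0295), Atf3 (1.29, 0.0295) and Klf6 (0.42, 0.0307) and the antiproliferative gene Btg2 (0.96, 0.0386). Each of these 4 calls was kept in only 2 or 3 of the 10 fits that left out a library, with limma adjusted p up to 0.0938. The log2 difference of Atf3 was 0.35 among replicates 1 and 2 and 1.91 among replicates 3 to 5, and that of Btg2 was 0.34 and 1.37. In aCM replicate 1 Atf3 (291) and Egr2 (35.9) lay within the vCM ranges of 259 to 458 and 20.8 to 56.1 normalized reads.

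**Figure D4:**
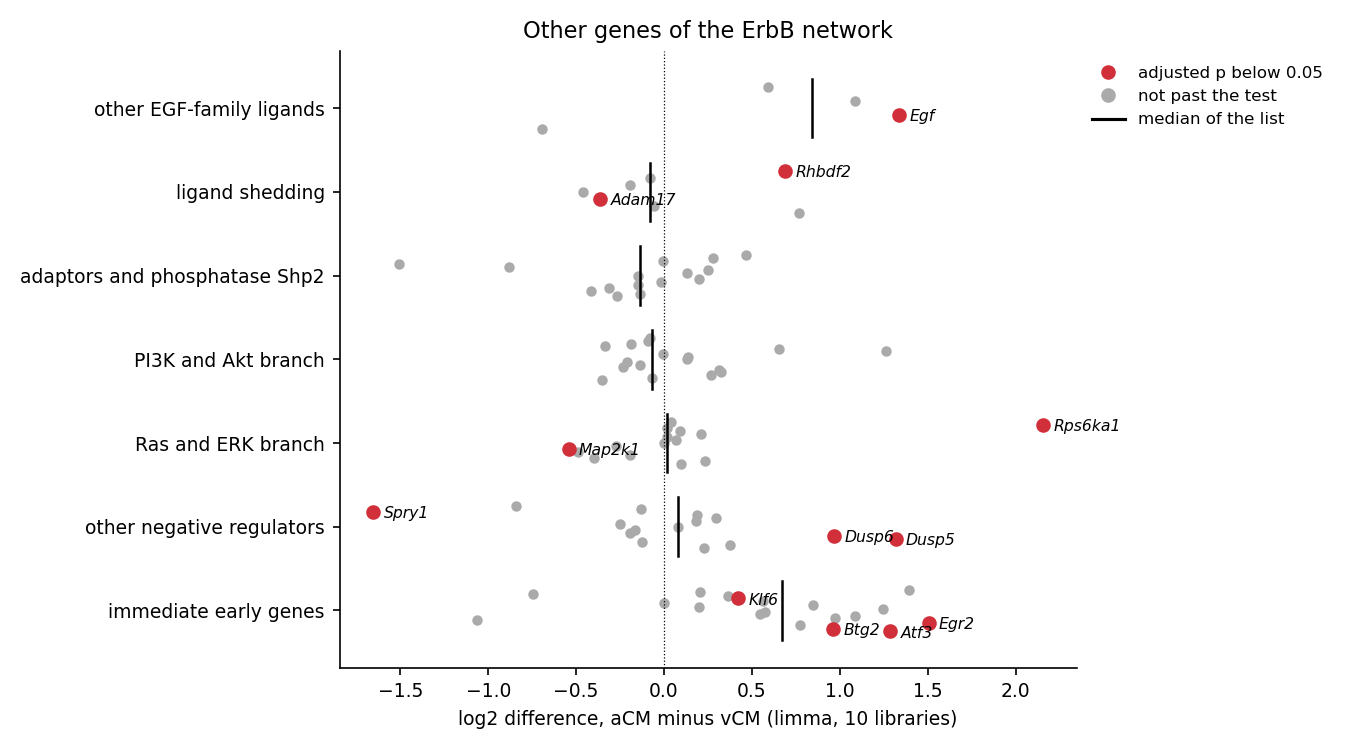
Chamber difference (log2, aCM minus vCM, limma) of each tested gene in the lists of other ligands, shedding, adaptors, PI3K and Akt, Ras and ERK, negative regulators and immediate early genes; red points passed the adjusted p threshold and are named, grey points did not, and the vertical line in each row is the median of the list. Spry1 is the lowest named gene (-1.66) and Rps6ka1 the highest (2.16).

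Markers of other cell types also differed between the chambers. All 7 tested epicardial markers were higher in aCM, with sums of 2707 to 6446 normalized reads in aCM and 343 to 1837 in vCM. Of 7 smooth muscle and pericyte markers, 2 were higher in vCM and 5 did not pass (1 higher in aCM and 3 in vCM with the block), with sums of 1689 to 6544 in aCM and 9002 to 15453 in vCM. Schwann and glial markers, of which 2 of 11 were tested and 1 was higher in aCM, summed to 246 to 351 in aCM and 81.2 to 114 in vCM, and Sox10 was at 0 in 3 aCM libraries and 1 vCM library. Neuronal markers, of which 2 of 9 passed the filter, both through their aCM levels, summed to 51.8 to 131 in aCM and 21.1 to 48.4 in vCM. Immune markers, of which 3 of 8 were tested and 1 was higher in aCM, summed to 83.7 to 196 in aCM and 24.8 to 163 in vCM. The part of these cells in the levels of Erbb2, Erbb3, Erbb4 and Nrg2 was not tested.

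**Figure D5:**
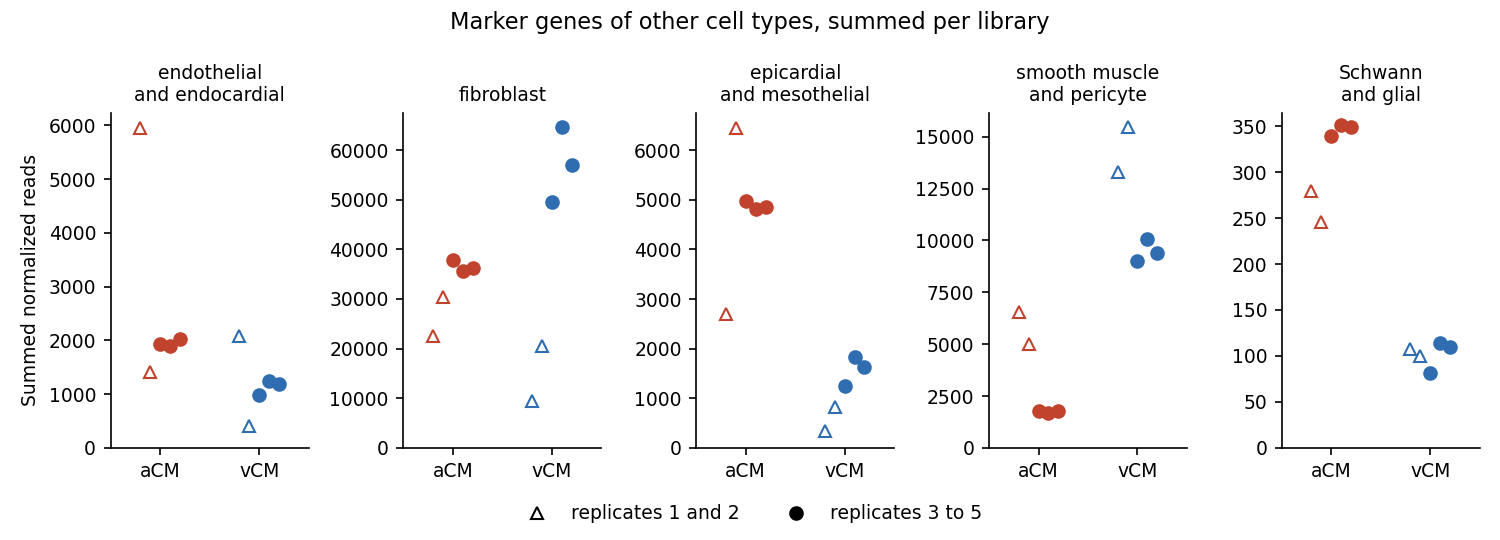
Summed normalized reads of 5 marker lists of other cell types in each library, aCM left of vCM in every panel; triangles are replicates 1 and 2 and filled circles replicates 3 to 5. Epicardial sums are 2707 to 6446 in aCM and 343 to 1837 in vCM, and the endothelial sum of aCM replicate 1 (5951) is above those of the other libraries.

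For each called member, the genes with the most similar profile over the 10 libraries were found by the root mean square difference of centred log2 values, among 11948 named genes. For Erbb4 they were Abcc8, the sulphonylurea receptor of ATP-sensitive potassium channels (0.15), and the imprinted gene Zim1 (0.18). Abcc8 averaged 633 normalized reads in aCM and 187 in vCM, a log2 difference of 1.84 beside 1.79 for Erbb4. For Erbb2 they were Vasn (0.13) and Acp6 (0.13), and for Nrg2 they were Rapgef3 (0.27), which encodes the cAMP sensor Epac1, and Olr1 (0.32).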

How the data were processed

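RNA of 5 aCM and 5 vCM libraries was extracted with Trizol, and libraries were built with the ScriptSeq v2 kit, per the labels' protocols. Trimmomatic, HISAT2 and featureCounts were used on GRCm38 (mm10), as the submitters' processing notes list. The strand setting, annotation and tool versions were not given in the sources used here. Each table lists a normalized signal, which is the read count of a gene over the library's size factor, computed by the authors with DESeq2 per the file headers. Whole reads were recovered for 100% of values within 0.01 and used for depth, edgeR 4.0.16 (1995 genes called) and DESeq2 1.42.0 (2575).

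The 12422 genes averaging 10 or more normalized reads were tested with limma 3.58.1 (R 4.3.3; trend, robust, two-sided) on log2(normalized reads + 1), which understates changes of low genes, with Benjamini-Hochberg adjustment at 0.05. On simulated aCM and vCM counts for 12422 genes it called 80% of 2-fold and 97% of 4-fold changes. The simulated counts held no difference between the library sets, which the real libraries have, so these shares do not carry over to them. A count of 0 allows up to 3 reads, or 1.70 to 10.4 normalized reads by library, for counting error only. Same-numbered aCM and vCM libraries deviate together (r = 0.582, 0.637, 0.623, 0.556 and 0.631), and on these values the numbers were taken to pair them. Within a library set r was 0.405, 0.405, -0.0394, 0.00205 and 0.0678, and the libraries numbered 4 and 5 did not correlate best with their own number. The values of replicates 1 and 2 are equal by construction, since that set holds 2 libraries a chamber. Within replicates 3 to 5 these values do not show a pairing, which limits what the replicate block can say. No libraries were identical within sampling noise, measured by the chi-square per degree of freedom of their reads. It was 2.21 to 11.8 within aCM replicates 3 to 5 and 3.33 to 6.43 within vCM replicates 3 to 5. Between these replicates and replicates 1 and 2 of the same chamber it was 140 to 238. The small SDs within replicates 3 to 5 therefore speak only for libraries that lie close together. Shares were tested with exact permutation tests (SciPy 1.17.1) that did not use the pairs or the library sets.

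Positions are from GENCODE release M21 (GRCm38; 24366 of 25239 symbols matched), exon lengths are unions of its exons, and upstream sequences are from RefSeq. Members, lists and markers were chosen with earlier results of these data known. All members are named, with every called gene of the network lists, the 2 smallest p-values of lists with no call, and the 2 genes most similar to each called member. Pseudocount, filter, scaling, block, library set, tool and left-out libraries were varied. The epicardial marker Muc16 was not analysed here.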

Additional observations from a re-analysis of the deposited data

Results flagged for a closer look

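The chamber difference was not the same in the library sets for 2 of the 8 members, Egfr and Errfi1, beside 5.21% of all genes tested. Of the named network genes it also differed for Spry1, Egf and Pik3r1, which were named for their chamber p-values in these same data. The fibroblast markers Lum, Pdgfra, Col1a1, Postn and Fbln2 passed this test as well. The test was limma's interaction of chamber and set over all genes. Its value, the log2 difference in replicates 3 to 5 minus that in replicates 1 and 2, was -1.60 for Egfr (adjusted p = 0.0182), -0.90 for Errfi1 (adjusted p = 0.0340) and -1.37 for Spry1 (adjusted p = 0.0304). For Egf it was 1.03 (adjusted p = 0.0343) and for Pik3r1 0.79 (adjusted p = 0.00419). These values are limma estimates, and the sets differ in depth, in their Rn45s share and in the fibroblast marker sum.

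Single libraries stood apart in 11 of 56 groups of 5 values examined, 3 of 16 among the members, where chance gives about 1 in 20. Among the members they were Nrg2 in aCM replicate 2 (61.9 normalized reads), Nrg1 in vCM replicate 1 (24.2) and Hbegf in vCM replicate 2 (158). Among the other named genes they were Shc3 (26.2) and Egr2 (35.9) in aCM replicate 1 and Klf6 in aCM replicate 2 (1028 normalized reads). In vCM replicate 2 they were Rps6ka1 (19.5), Dusp6 (197) and Btg2 (1168 normalized reads). Among receptor shares they were Erbb3 in vCM replicate 2 (14.4%) and Erbb4 in vCM replicate 1 (42.5%).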

How the results depend on the processing

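Over 182 alternatives for the 8 members, 160 kept the direction and the side of the threshold, 17 newly passed, 3 no longer passed and 2 reversed: Egfr was at 0.11 in replicates 1 and 2 only, and Hbegf at -0.0545 in replicates 3 to 5 only. Shc3 also reversed, at 0.11 in replicates 1 and 2 only. Erbb4 was called in all 23 alternatives. The count of genes called was 1824, and with the replicate block, which treats same-numbered libraries as pairs, it was 4017. It was 3955 with the library set as a term, 6561 in replicates 3 to 5 only, 638 in replicates 1 and 2 only, and 1365 to 1938 with each library left out. Members called numbered 3, against 5 with the replicate block, 6 with the library set as a term, 6 in replicates 3 to 5 only (52.8% of all genes), 1 in replicates 1 and 2 only (5.14%), 5 with DESeq2, 5 with both libraries numbered 1 left out (chosen after seeing the data, 17.3% of all genes), and 3 to 4 with each library left out. The network count of 12 was 39 with the replicate block (41.9%, beside 32.3% of all genes) and 36 with the library set as a term (38.7%, beside 31.8%). It was 59 in replicates 3 to 5 only (63.4%, beside 52.8%) and 20 with DESeq2 (21.5%, beside 20.7%). In replicates 1 and 2 only it was 0 with limma (13 at an unadjusted p under 0.05), beside 5.14% of all genes. With each library left out it was 5 to 15. The 20 tested immediate early genes gave 13 calls higher in aCM and 1 in vCM with the block. They gave 16 and 1 in replicates 3 to 5 only. The 2 members with a difference between library sets became 1 with no filter on the mean and 0 to 5 with each library left out. The Erbb4 share difference of 22.5 percentage points was 16.8 in replicates 1 and 2 only (exact p = 0.667), 26.4 in replicates 3 to 5 only (exact p = 0.100) and 20.8 to 25.4 with each library left out. The cause of these changes was not tested. With 3 or fewer libraries a side no exact test of the share reaches 0.05. Apart from the members named with it, the block changed no other member's call. Scaling to equal totals put the median gene at 0.06, against -0.01. Depth limits Nrg1 and Nrg2 most, with 15 and 42 reads over the 5 vCM libraries.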
